A study of Homo sapiens with 12 samples.

Results

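The interferon-stimulated genes described here are a list of 45 genes that cells switch on in response to interferon, chosen by name and read through every array probe whose platform gene symbol is on the list. Probes were found for 44 of the 45 genes, 67 of the 48803 probes on the array, and 32 genes had a probe bright enough to be tested, out of 8079 such genes in all. RNA came from L-540, a single established Hodgkin lymphoma cell line, and was hybridised to Illumina bead arrays, on which each probe reports a fluorescence intensity. Untreated control cells, cells given 100 nM givinostat, cells given 5 µM sorafenib and cells given both drugs at those doses (the combination) were each measured on 3 arrays lettered A, B and C, 24 hours into treatment. Of the drugs, givinostat inhibits histone deacetylases and sorafenib inhibits several kinases. The labels do not say whether the letters mark separate cultures, so the p-values measure only the spread between these arrays, which may be technical. All 4 groups are the same bulk line, in which a lower share of expressing cells and less RNA per cell cannot be told apart.

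Interferons of the alpha and beta class bind the IFNAR1 and IFNAR2 receptor, whose kinases JAK1 and TYK2 activate transcription factors. A complex that contains IRF9 then binds the interferon-stimulated response element (ISRE) in the promoters of its targets, while interferon gamma acts through the gamma-activated site (GAS). The induced genes encode sensors of foreign nucleic acid, enzymes that stop viral translation, proteins that trap or degrade viruses, and regulators such as IRF1 and IRF7 that extend the response.

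Promoter sequence was available from RefSeq (GRCh38.p14) for 36 of the 45 genes, as windows of 250 bases before and 50 bases after each annotated start. The ISRE core was searched as GAAANNGAAA and the GAS as TTCNNNGAA, on both strands, with N for any base. An ISRE match lay in a window of 25 of the 36 genes (69.4%), against 4.38% of all 27305 genes with a window. A GAS match lay in a window of 12 of the 36 (33.3%), against 9.38% of all genes. Among the list's genes that were tested on the arrays, 16 of 25 with a window (64.0%) held an ISRE match, and among those with a probe too dim to test it was 9 of 11 (81.8%). A match is only a run of letters and does not show that a factor binds there. The 250 bases before the start of 4 genes to which the results return are printed 5′ to 3′ on the gene's strand, with the ISRE matches (SAMD9, BST2, ISG15) or the GAS match (IRF1) in capitals.
SAMD9: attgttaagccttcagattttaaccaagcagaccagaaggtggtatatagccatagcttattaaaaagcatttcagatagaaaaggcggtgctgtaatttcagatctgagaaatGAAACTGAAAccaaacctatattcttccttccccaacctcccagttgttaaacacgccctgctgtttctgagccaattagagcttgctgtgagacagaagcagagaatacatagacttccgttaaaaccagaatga
BST2: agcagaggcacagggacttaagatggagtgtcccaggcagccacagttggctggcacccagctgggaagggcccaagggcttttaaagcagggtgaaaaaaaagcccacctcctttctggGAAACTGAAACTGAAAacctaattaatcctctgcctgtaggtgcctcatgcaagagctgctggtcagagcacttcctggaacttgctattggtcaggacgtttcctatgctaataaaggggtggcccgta
ISG15: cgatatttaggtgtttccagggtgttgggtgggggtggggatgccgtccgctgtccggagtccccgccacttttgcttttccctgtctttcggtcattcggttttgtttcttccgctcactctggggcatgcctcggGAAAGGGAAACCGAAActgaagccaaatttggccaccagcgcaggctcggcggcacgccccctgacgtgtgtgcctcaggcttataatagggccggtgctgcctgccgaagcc
IRF1: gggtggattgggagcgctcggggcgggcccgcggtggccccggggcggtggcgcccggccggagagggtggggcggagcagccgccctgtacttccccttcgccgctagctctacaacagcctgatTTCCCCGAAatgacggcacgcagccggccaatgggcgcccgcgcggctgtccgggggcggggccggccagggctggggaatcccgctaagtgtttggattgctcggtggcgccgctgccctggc
The SAMD9 window is chr7:93117980-93118229 on the minus strand, and its ISRE match begins 136 bases before the start. The BST2 window is chr19:17405631-17405880 on the minus strand, with overlapping ISRE matches that begin 130 and 124 bases before the start, and GAS matches, not capitalised, at 136, where one overlaps them, and at 58. The ISG15 window is chr1:1013247-1013496 on the plus strand, with overlapping ISRE matches at 113 and 107 bases before the start. The IRF1 window is chr5:132490774-132491023 on the minus strand, with its GAS match at 124 bases before the start and no ISRE match.

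L-540 cells carried part of the interferon-stimulated set above background. A probe counted as detected on an array where its detection p was under 0.05. Of the 32 tested genes, 28 were detected on all 12 arrays, among them ISG15, IRF1, IRF7, BST2, GBP2, SAMD9 and the 3 oligoadenylate synthetases OAS1, OAS2 and OAS3. HERC6 was detected on 11 arrays, MX2 and IFI44 on 10 each, and GBP1 on 4. GBP1 entered the test through the givinostat group alone, where it was detected on all 3 arrays, against 0 control arrays, 1 sorafenib array and 0 combination arrays. Counts over the tested genes therefore describe the genes that passed this filter and not the whole list.

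MX1, RSAD2, XAF1, IFIT5, DTX3L and LGALS3BP, of which MX1 and RSAD2 (viperin) are classic antiviral effectors, were detected on 0 arrays. A further 6 genes were detected by their best probe on some arrays but never on all 3 of a group. IFIT1 was detected on 2 arrays, both control. IFIT3 was detected on 3, 1 with givinostat and 2 with sorafenib. OASL, CMPK2 and IFI44L were detected on 3 arrays each, and IFI27 on 6. USP18, the protease that removes ISG15 from proteins, had no probe named in the annotation used and was not analysed here. For these 13 genes no change can be given.

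**Figure D1:**
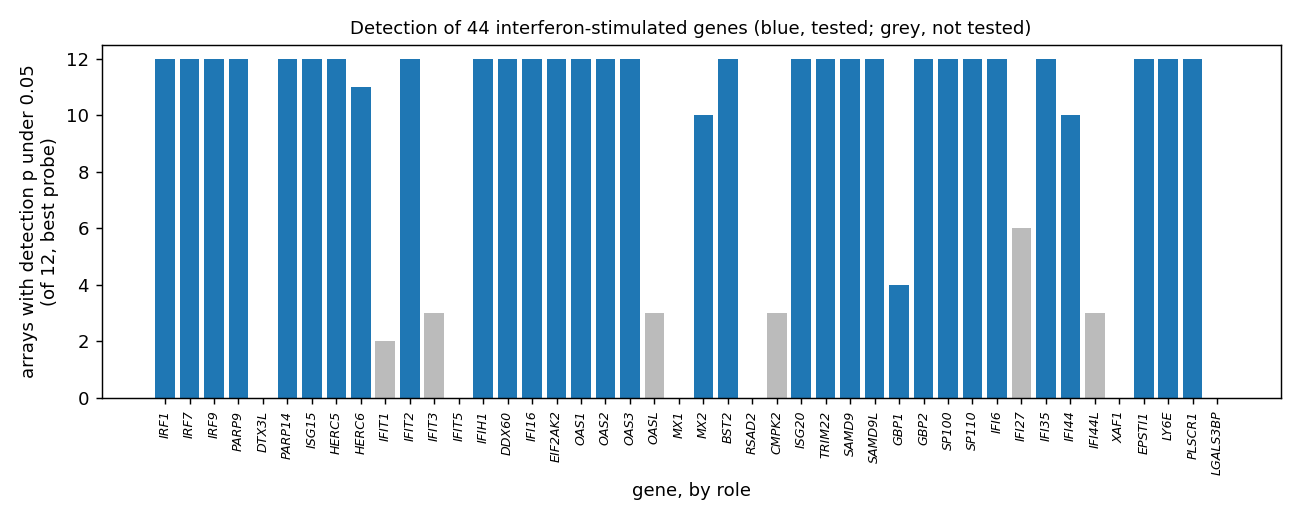
Number of arrays, out of 12, on which the best probe of each of 44 interferon-stimulated genes had a detection p under 0.05 (vertical axis), with the genes ordered by role along the horizontal axis. Blue bars are the 32 tested genes, 28 of which reach 12, and grey bars or empty places are the 12 genes that were not tested, none above 6.

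One array stood apart from the others. Combination array B had the highest median raw intensity, 681.1 against 418.1 to 579.3 on the other 11, and the lowest share of probes detected, 22.4% against 24.6% to 30.9%. Values below are log2 intensities after background correction and quantile normalization, and changes are the difference between means of 3 arrays, with the standard error (SE) from limma. Adjusted p-values are Benjamini-Hochberg values over all 8079 genes, with 0.05 as the threshold. Of 8 Hodgkin line markers listed, 7 were tested, namely TNFRSF8 (CD30), FSCN1, TRAF1, IL2RA, IRF4, GATA3 and BATF3. IRF4 passed the filter through the sorafenib group alone, with 3 arrays detected there, against 2 control, 1 givinostat and 0 combination arrays. Against control, 1 of the 7 was called lower with sorafenib and 1 with the combination (3.38% and 6.99% of all genes called in either direction). Markers of other cells passed the filter less fully, with 0 of 6 for B cells, 1 of 6 for T cells (CD2), 3 of 5 for monocytes (CSF1R, FCGR3A, CD68), 2 of 4 for plasmacytoid dendritic cells (TCF4, GZMB) and 0 of 4 each for fibroblasts and endothelium. Among those 6 genes 0 were called in any of the 6 comparisons, and their part in the results was not tested.

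The clearest result among the interferon-stimulated genes lay in the combination group, where the GTPase gene GBP2 rose and the antiviral gene SAMD9 fell relative to control. These were 2 of 32 tested genes (6.25%), beside 6.99% of all 8079 genes called in that comparison, so the list was called about as often as genes at large. With givinostat alone 0 of 32 genes passed (0.0866% of all genes), and with sorafenib alone 0 of 32 (3.38% of all genes). With the replicate letter as a block, on the control, givinostat and sorafenib arrays, 1 and 3 of 32 passed (1.81% and 8.84% of all genes). Relative to givinostat the combination gave 0 of 32 (1.68% of all genes), relative to sorafenib 0 of 32 (0.359%), and the interaction, which asks whether the drugs' effects add up on the log2 scale, gave 0 of 32 (0% of all genes). At an unadjusted p under 0.05, limma counted 7 of the 32 with givinostat, 7 with sorafenib, 11 with the combination, 6 for the combination against givinostat, 10 against sorafenib and 2 for the interaction. The same shares over all genes were 12.9%, 19.9%, 24%, 19.9%, 15.6% and 5.85%. GBP1 is among the 7 with givinostat. Over the 28 genes detected on all 12 arrays the counts were 5, 7, 11, 6, 8 and 1.

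**Figure D2:**
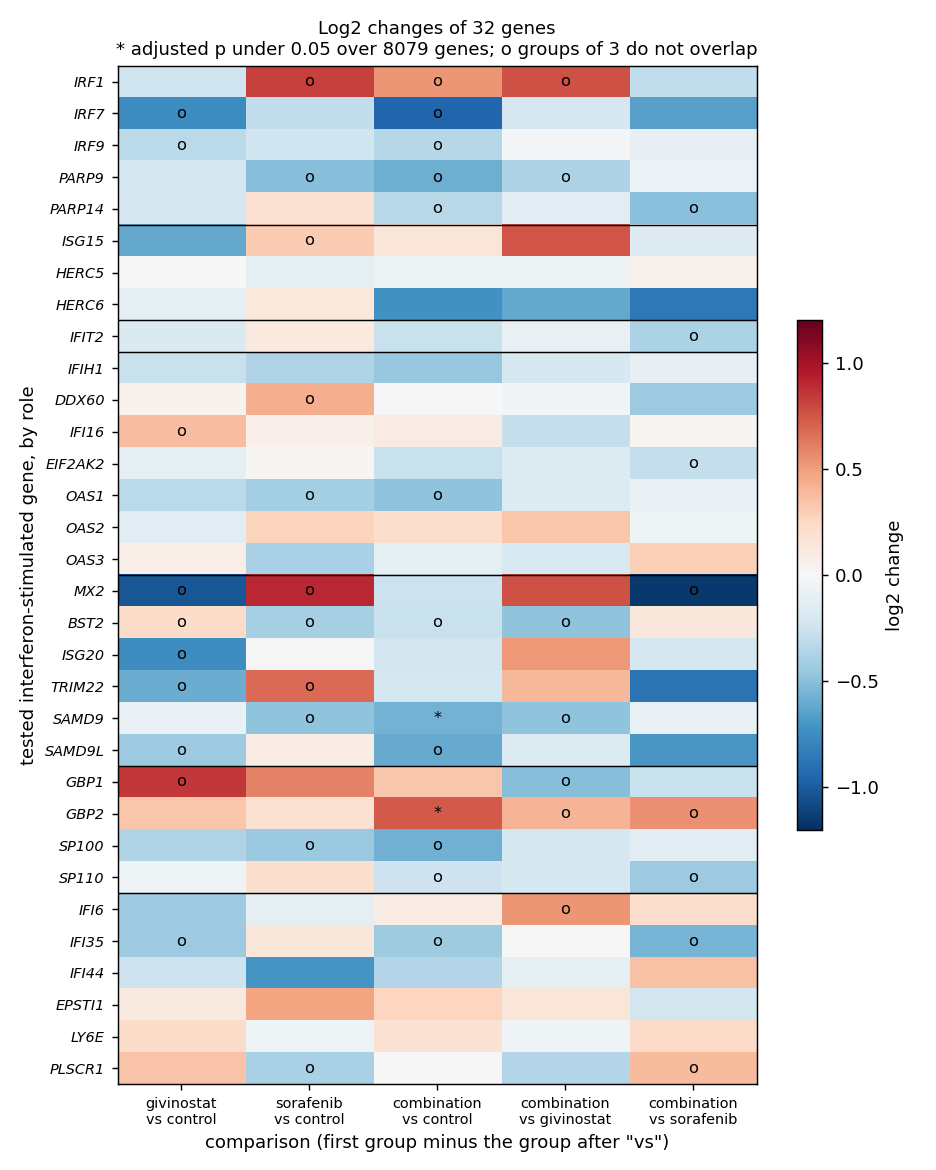
Log2 changes of the 32 tested interferon-stimulated genes (rows, by role) in 5 comparisons (columns, the first-named group minus the group after "vs"), red for higher and blue for lower. An asterisk marks an adjusted p under 0.05 over 8079 genes, carried only by SAMD9 and GBP2 in the combination against control, and a circle marks groups of 3 arrays that do not overlap.

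SAMD9 encodes a cytoplasmic protein that restrains poxvirus growth and cell proliferation. Its log2 intensity was 10.77, 10.94 and 10.80 on control arrays A, B and C and 10.84, 10.80 and 10.62 with givinostat. It was 10.20, 10.52 and 10.34 with sorafenib and 10.27, 10.11 and 10.43 with the combination. Every array that received sorafenib, alone or with givinostat, lay below every array that did not. The share of all tested genes with such a split was not counted, so how unusual this order is cannot be said. On the raw scale the control arrays read 2333, 2376 and 2368 and the combination arrays 1406, 1559 and 1749. SAMD9 fell by 0.57 ± 0.13 (SE) in the combination against control, 1.48-fold lower (limma adjusted p = 0.0309). With sorafenib alone the change was −0.49 ± 0.13 (adjusted p = 0.0771), and it passed once the replicate letter entered as a block (adjusted p = 0.0469, control, givinostat and sorafenib arrays only). With givinostat alone it was −0.08 ± 0.13 (adjusted p = 0.853), and the combination differed from sorafenib by −0.08 ± 0.13 (adjusted p = 0.811). The combination against givinostat gave −0.49 ± 0.13 (adjusted p = 0.0868). The call in the combination was lost without control A, control B, control C, combination A or combination B, with adjusted p between 0.058 and 0.107 and changes between −0.60 and −0.49.

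GBP2, an interferon-inducible guanylate-binding protein that acts on membranes of intracellular pathogens, ran the other way. Its log2 intensity was 13.84, 13.27 and 13.59 on the control arrays and 14.13, 13.87 and 13.70 with givinostat. It was 13.85, 13.71 and 13.70 with sorafenib and 14.45, 14.31 and 14.15 with the combination. The 3 combination arrays lay above the other 9 after normalization. The raw intensities were 18098, 18506 and 18681 with the combination and 15767, 10383 and 13878 in the controls, while givinostat array A, at 18996, was above all 3 combination arrays on that scale. GBP2 rose by 0.74 ± 0.17 in the combination against control, 1.67-fold (limma adjusted p = 0.0260). The single drugs gave 0.33 ± 0.17 for givinostat (adjusted p = 0.436) and 0.19 ± 0.17 for sorafenib (adjusted p = 0.587), and the interaction was 0.22 ± 0.24 (adjusted p = 0.938). Against givinostat the combination was higher by 0.41 (adjusted p = 0.210) and against sorafenib by 0.55 (adjusted p = 0.160). The call was lost without control B, control C, combination A or combination B, with adjusted p between 0.0697 and 0.0924 and changes between 0.59 and 0.75.

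**Figure D3:**
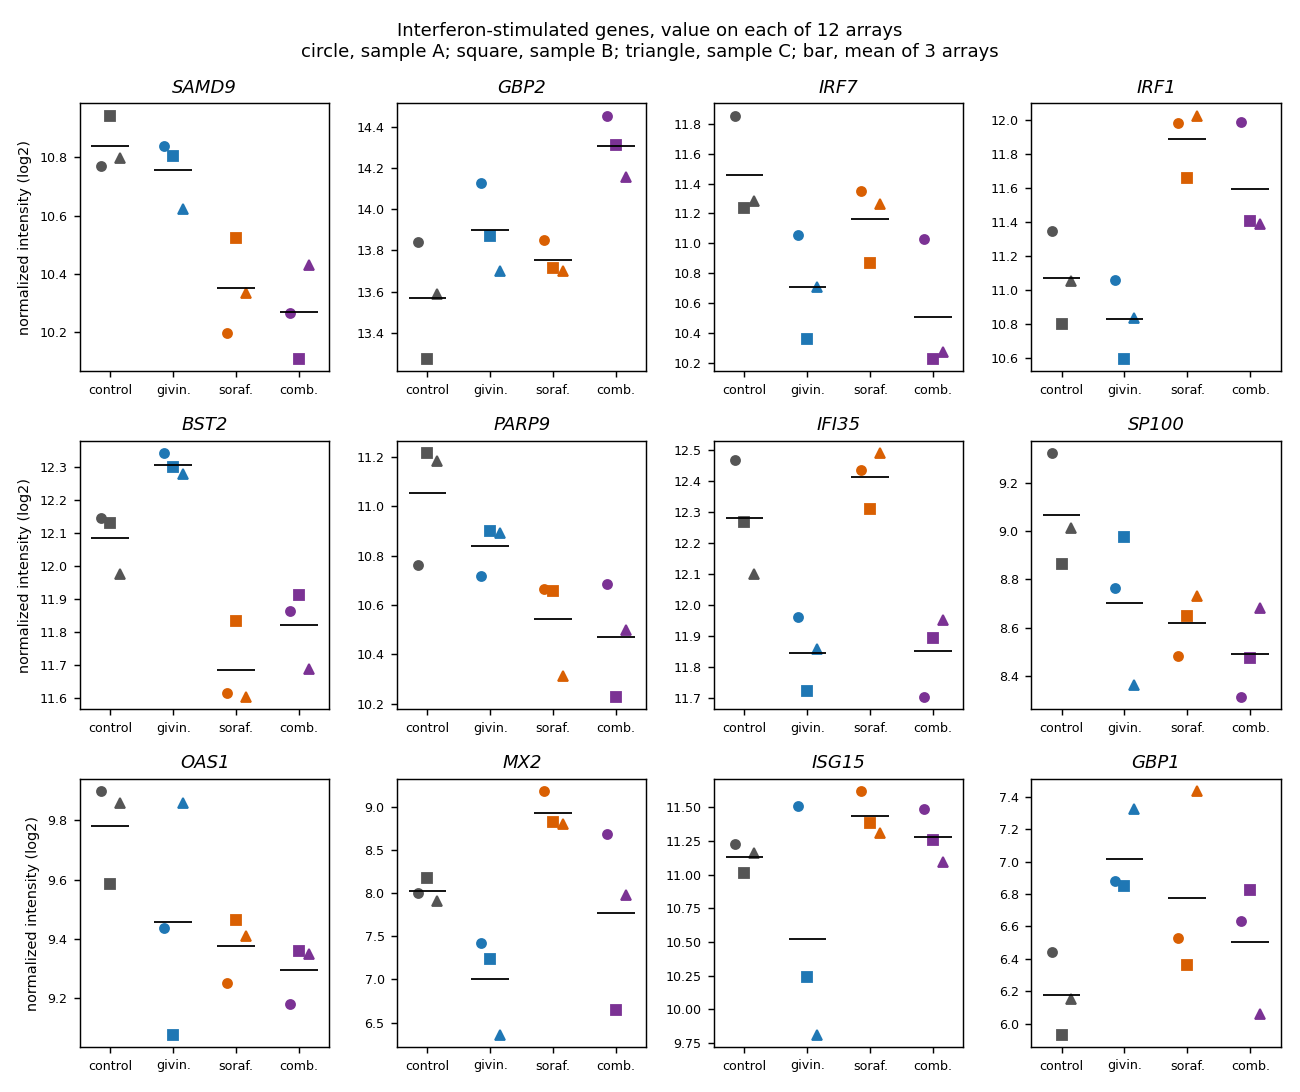
Normalized log2 intensity (vertical axes, each panel on its own scale) of 12 interferon-stimulated genes on each of the 12 arrays, by group, with circles for A, squares for B, triangles for C and a bar at the mean of 3 arrays. The 6 arrays with sorafenib lie below the other 6 for SAMD9, between 10.11 and 10.52, and the 3 combination arrays are the highest for GBP2, between 14.15 and 14.45.

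Of the 5 tested transcription factors and signalling regulators, 0 passed in any of the 6 comparisons without a block. IRF7, which drives interferon-alpha gene transcription, was 11.85, 11.24 and 11.28 on the control arrays and 11.05, 10.36 and 10.71 with givinostat. It was 11.35, 10.87 and 11.26 with sorafenib and 11.03, 10.23 and 10.27 with the combination. All arrays with givinostat, alone or combined, lay below all control arrays, while the sorafenib arrays overlapped the controls. The change was −0.75 ± 0.26 with givinostat (limma adjusted p = 0.254) and −0.95 ± 0.26 with the combination (adjusted p = 0.0545). Without combination array A the latter was −1.21 (adjusted p = 0.0265). With the replicate letter as a block in the control, givinostat and sorafenib arrays, IRF7 fell with givinostat (adjusted p = 0.0401), the 1 of 32 genes to pass there beside 1.81% of all genes. A dimmer second IRF7 probe gave −0.58 with givinostat and −1.18 with the combination.

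IRF1, a factor induced by interferon gamma that carries the GAS match printed above, was 11.35, 10.80 and 11.05 on the control arrays and 11.06, 10.59 and 10.83 with givinostat. It was 11.98, 11.66 and 12.03 with sorafenib and 11.99, 11.41 and 11.39 with the combination. Every array that received sorafenib lay above every array that did not, a split whose share over all genes was not counted. The change was 0.82 ± 0.21 with sorafenib, 1.77-fold (limma adjusted p = 0.0579), and it passed with the replicate letter as a block (adjusted p = 0.0137) or without combination array A (adjusted p = 0.0406). The combination differed from control by 0.53 ± 0.21 (adjusted p = 0.149) and from givinostat by 0.77 ± 0.21 (adjusted p = 0.0846).

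PARP9, a member of the ADP-ribosyltransferase family that works with DTX3L, was 10.76, 11.21 and 11.18 in control and 10.72, 10.90 and 10.89 with givinostat. It was 10.67, 10.65 and 10.31 with sorafenib and 10.68, 10.23 and 10.50 with the combination. The sorafenib and combination arrays lay below the controls, by 0.51 and 0.58 on average (limma adjusted p = 0.131 and 0.0648), and without control array A the combination change was −0.73 (adjusted p = 0.0438). IRF9, the DNA-binding part of the ISRE complex, ranged from 10.40 to 10.66 in control and from 10.14 to 10.53 over the other 9 arrays. Its change was −0.32 ± 0.13 with givinostat, −0.24 ± 0.13 with sorafenib and −0.34 ± 0.13 with the combination (adjusted p = 0.331, 0.342 and 0.137). PARP14, a related ADP-ribosyltransferase, changed by −0.33 ± 0.18 with the combination (adjusted p = 0.287).

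ISG15 is a ubiquitin-like protein that is joined to other proteins and is among the most strongly interferon-induced genes in many cells. It was 11.22, 11.01 and 11.16 on the control arrays and 11.51, 10.24 and 9.81 with givinostat. It was 11.62, 11.38 and 11.31 with sorafenib and 11.48, 11.26 and 11.09 with the combination. The givinostat arrays disagreed, with A above every control array and B and C below every other array. The change with givinostat was −0.61 ± 0.34 (limma adjusted p = 0.481), and without givinostat array A it was −1.11 (adjusted p = 0.0452). Without that array the combination against givinostat was 1.25 (adjusted p = 0.0148), against 0.76 ± 0.34 (adjusted p = 0.242) with it. HERC5, the main human ligase for ISG15, stayed between 12.67 and 13.48 over all 12 arrays, with changes of at most 0.12 in size. HERC6, a related HECT-family protein, was 7.63, 6.24 and 7.80 with the combination, not detected on array B, against 7.79 to 8.16 in control (change −0.72 ± 0.37, adjusted p = 0.261).

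Among the IFIT genes, whose products bind viral RNA and block translation, IFIT2 was the member tested. It lay between 7.53 and 7.91 in control, 7.27 and 7.86 with givinostat, 7.66 and 8.05 with sorafenib, and 7.35 and 7.63 with the combination. The combination arrays lay below the sorafenib arrays, by 0.38 ± 0.18 (limma adjusted p = 0.340).

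The 7 tested sensors of nucleic acid and their effectors gave changes between −0.49 and 0.44 against control, with adjusted p of 0.134 or more. IFI16, a sensor of foreign DNA, was 10.87, 10.86 and 10.93 in control and 11.29, 11.41 and 11.06 with givinostat, with no overlap between those groups (change 0.37 ± 0.15, adjusted p = 0.331). In the combination IFI16 was 10.91, 11.19 and 10.84, overlapping control (change 0.10 ± 0.15). OAS1, which makes the oligoadenylates that activate RNase L, was 9.90, 9.58 and 9.86 in control, 9.25, 9.46 and 9.41 with sorafenib, and 9.18, 9.36 and 9.35 with the combination. Both groups with sorafenib lay below control, by 0.41 ± 0.18 and 0.49 ± 0.18 (limma adjusted p = 0.247 and 0.134). The dimmer OAS1 probes gave −0.15 and −0.07 for the combination, so the size depends on the probe.

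OAS2, from the same family, was 12.58 to 12.87 in control and 12.76 to 13.12 with the combination, a change of 0.21 ± 0.16 (adjusted p = 0.446). A second OAS2 probe gave 0.04 and its dimmest kept probe −0.93. OAS3 overlapped control in every group. IFIH1 (MDA5, a sensor of double-stranded RNA) had the widest spread within groups, a pooled SD of 0.65, against a median SD of 0.25 over all tested genes. For IFIH1, DDX60 (a helicase cofactor of RNA sensing) and EIF2AK2 (PKR, the kinase that halts translation) the changes against control were between −0.46 and 0.44, with adjusted p of 0.396 or more.

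Of the 6 tested restriction factors, proteins that block steps of viral replication, 0 passed with givinostat or sorafenib alone without a block, and SAMD9 was the 1 that passed with the combination. BST2 (tetherin), which holds budding virus on the cell surface and carries the paired ISRE letters printed above, was 12.15, 12.13 and 11.98 in control and 12.34, 12.30 and 12.28 with givinostat. It was 11.62, 11.83 and 11.60 with sorafenib and 11.86, 11.91 and 11.69 with the combination. Givinostat arrays lay above control, and both groups with sorafenib lay below it. The change was 0.22 ± 0.12 with givinostat (limma adjusted p = 0.464), −0.40 ± 0.12 with sorafenib (adjusted p = 0.0923) and −0.26 ± 0.12 with the combination (adjusted p = 0.201). Between the combination and givinostat the difference was −0.49 ± 0.12 (adjusted p = 0.0627). With the replicate letter as a block on all 12 arrays, that difference and the sorafenib change passed. With the block on the control, givinostat and sorafenib arrays alone, the sorafenib change did not pass.

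MX2, a nuclear pore GTPase that restricts HIV, was 8.01, 8.17 and 7.91 in control and 7.42, 7.24 and 6.36 with givinostat, where it was detected on 2 of 3 arrays. It was 9.18, 8.82 and 8.80 with sorafenib and 8.68, 6.65 and 7.98 with the combination, again detected on 2 of 3. The givinostat arrays lay below control, the sorafenib arrays above it, and the combination arrays spread across it. The change was −1.02 ± 0.43 with givinostat (limma adjusted p = 0.344) and 0.90 ± 0.43 with sorafenib (adjusted p = 0.271). With the replicate letter as a block, without the combination arrays, the sorafenib change passed (adjusted p = 0.0385) and the givinostat change had an adjusted p of 0.0570. In the same blocked fit, IRF1 and MX2 rose and SAMD9 fell with sorafenib, 3 of 32 genes beside 8.84% of all genes, a share near that background.

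The other restriction factors tested did not pass in any of the 6 comparisons without a block. ISG20, an RNA exonuclease, was 13.52, 12.77 and 12.59 in control and 12.55, 11.87 and 12.23 with givinostat, a change of −0.74 ± 0.29 (limma adjusted p = 0.308). The groups do not overlap, although control C and givinostat A nearly touch. The ISG20 change passed with the replicate letter as a block on all 12 arrays. It did not pass with the block on the control, givinostat and sorafenib arrays alone. TRIM22, a ubiquitin ligase, was 7.55 to 8.24 in control, 6.71 to 7.51 with givinostat and 8.38 to 8.77 with sorafenib, which do not overlap with control (adjusted p = 0.542 and 0.351). SAMD9L, the neighbour and relative of SAMD9, was 10.01 to 10.07 in control and 8.78 to 9.87 with the combination, a change of −0.60 ± 0.26 (adjusted p = 0.185). With sorafenib alone SAMD9L was 9.83 to 10.52, a change of 0.09 ± 0.26 (adjusted p = 0.882), where SAMD9 gave −0.49.

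GBP1, a relative of GBP2, was at 6.44, 5.93 and 6.15 in control, below detection on all 3 arrays, and 6.88, 6.85 and 7.32 with givinostat. It was 6.53, 6.36 and 7.43 with sorafenib and 6.63, 6.82 and 6.06 with the combination. Relative to the detection limit of the control arrays GBP1 was at least 1.17-fold higher with givinostat (limma change 0.84 ± 0.29, adjusted p = 0.241). SP100, a scaffold of nuclear bodies that silence incoming viral genomes, was 9.32, 8.86 and 9.01 in control and 8.77, 8.98 and 8.36 with givinostat. It was 8.48, 8.65 and 8.73 with sorafenib and 8.32, 8.48 and 8.68 with the combination, both below every control array. The changes were −0.36 ± 0.18, −0.44 ± 0.18 and −0.57 ± 0.18 (limma adjusted p = 0.436, 0.210 and 0.0844). A second SP100 probe gave −0.43, −0.50 and −0.63, and the dimmest kept SP100 probe gave 0.64, −0.26 and −0.13. SP110, a related nuclear body protein, was 10.82 to 11.11 with the combination against 11.14 to 11.35 in control (change −0.24 ± 0.19, adjusted p = 0.479).

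IFI35, a partner of the adaptor protein NMI, was 12.47, 12.27 and 12.10 in control and 11.96, 11.72 and 11.86 with givinostat. It was 12.43, 12.31 and 12.49 with sorafenib and 11.70, 11.90 and 11.95 with the combination. Every array that received givinostat lay below every array that did not, a split whose share over all genes was not counted. The change was −0.43 ± 0.13 with givinostat (limma adjusted p = 0.213), −0.43 ± 0.13 with the combination (adjusted p = 0.0796), and −0.56 ± 0.13 for the combination against sorafenib (adjusted p = 0.107).

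IFI6, which restrains cell death at mitochondria, was 12.91, 12.37 and 12.23 in control and 12.24, 11.87 and 12.07 with givinostat. It was 12.63, 12.15 and 12.37 with sorafenib and 12.46, 12.86 and 12.46 with the combination. The combination arrays lay above the givinostat arrays, by 0.53 ± 0.20 (limma adjusted p = 0.185), and its interaction was 0.65 ± 0.29 (adjusted p = 0.822). A second IFI6 probe gave 0.14 with givinostat where the first gave −0.44. PLSCR1, a phospholipid scramblase, was 7.79, 7.46 and 7.50 in control, 8.01, 8.10 and 7.67 with givinostat, 7.09, 7.11 and 7.39 with sorafenib, and 7.73, 7.39 and 7.62 with the combination. The sorafenib arrays lay below control by 0.38 ± 0.16 (adjusted p = 0.217), and the combination arrays lay above the sorafenib arrays, with array B only just above the highest of them (0.38 ± 0.16, adjusted p = 0.284). IFI44 was detected on 2 of 3 arrays in the sorafenib and combination groups, with a change of −0.71 ± 0.39 for sorafenib (adjusted p = 0.347). For EPSTI1 and for LY6E, a membrane-anchored protein that blocks entry of some viruses, the changes against control were between −0.05 and 0.48 (adjusted p of 0.480 or more).

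Across the 32 tested genes the median change was −0.18 with givinostat, 0.04 with sorafenib and −0.25 with the combination, beside 0.00, 0.00 and −0.02 over all 8079 genes. It was −0.12 for the combination against givinostat and −0.14 against sorafenib, beside −0.02 over all genes in both. With givinostat 23 of 32 genes had a negative change, with sorafenib 15 and with the combination 22, beside 4041, 4037 and 4280 of all 8079 genes. These 3 comparisons share the control arrays, so their medians are not independent. Over the 28 genes detected on all 12 arrays the medians were −0.18, 0.01 and −0.23. The groups of 3 arrays did not overlap for 10 of the 32 genes with givinostat (19.5% of all genes), 11 with sorafenib (25.6%) and 13 with the combination (28.8%). With givinostat 3 were higher and 7 lower, beside 10.5% and 8.96% of all genes. The 3 include GBP1, which entered the test through that group alone. Among the 28 genes detected on all 12 arrays, 2 were higher and 6 lower with givinostat. With sorafenib 5 of the 32 were higher and 6 lower (13.3% and 12.3%), and with the combination 2 were higher and 11 lower (14.6% and 14.2%). The 11 lower genes were IRF7, IRF9, PARP9, PARP14, OAS1, BST2, SAMD9, SAMD9L, SP100, SP110 and IFI35. For the combination against givinostat it was 7 genes (24.4% of all genes) and against sorafenib 8 (20%).

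Within each group, array A had the highest median over the 32 genes. Relative to the control mean the medians on A, B and C were 0.12, −0.12 and −0.05 in control, −0.03, −0.20 and −0.16 with givinostat, and 0.14, −0.04 and −0.03 with sorafenib. With the combination they were −0.01, −0.36 and −0.26, and the lowest of all was combination array B. Only combination arrays B and C and givinostat arrays B and C lay below every control array. Without combination array B the median for the combination was −0.20 in place of −0.25. The part of array quality or of the letters in these medians was not tested.

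**Figure D4:**
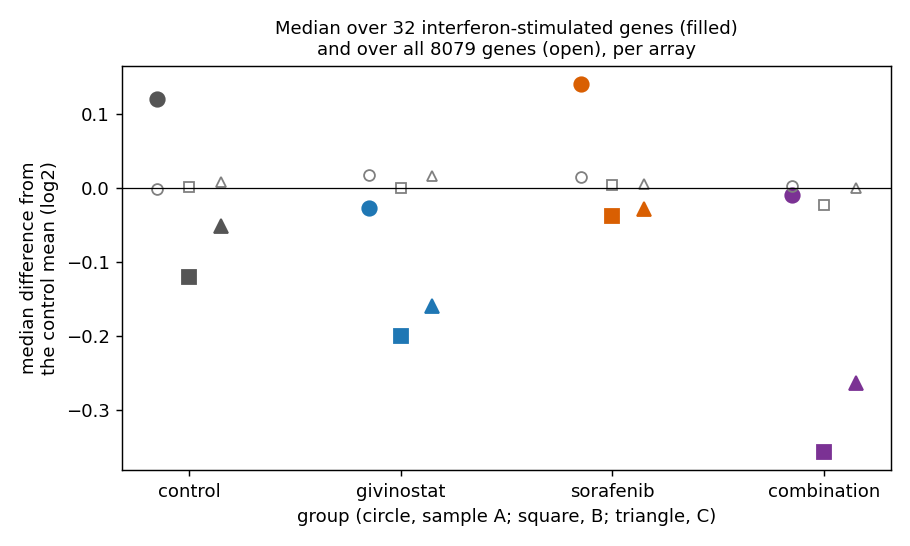
Median difference from the control mean (log2, vertical axis) over the 32 tested interferon-stimulated genes (filled) and over all 8079 genes (open) on each array, by group, with circles for A, squares for B and triangles for C. The filled symbols run from −0.36 on combination array B to 0.14 on sorafenib array A, while the open symbols stay between −0.02 and 0.02.

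The pathway upstream was read from 76 further listed genes, of which 73 had a probe and 42 were tested. Of the 42, 0 passed with givinostat, 1 with sorafenib, 3 with the combination, 1 for the combination against givinostat, and 0 for the combination against sorafenib and for the interaction. The background shares are those given above, and at an unadjusted p under 0.05 limma counted 6 with givinostat, 7 with sorafenib, 14 with the combination, 10 for the combination against givinostat, 5 against sorafenib and 2 for the interaction. Of 21 interferon genes, all with a probe, 10 were detected on 0 arrays and IFNA8 and IFNA21 were the ones tested, with adjusted p of 0.176 or more. IFNA21 entered the test through the combination group alone, detected there on 3 arrays, against 2 control, 0 givinostat and 2 sorafenib arrays. It is among the 10 counted for the combination against givinostat, a count that this filter favours.

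IFNAR2, a chain of the receptor for alpha and beta interferons, was 9.04, 9.48 and 9.25 in control and 10.21, 10.10 and 10.06 with the combination. It rose by 0.87 ± 0.20, 1.83-fold (limma adjusted p = 0.0279), and the single drugs gave 0.37 and 0.46 (adjusted p = 0.471 and 0.233). That call was lost without any 1 of the 6 control and combination arrays (adjusted p 0.0520 to 0.0826, changes 0.76 to 0.98). It was also lost with the mean of the kept probes in place of the brightest probe. The other chain, IFNAR1, was 9.11 to 9.27 in control and 8.77 to 9.37 with the combination (change −0.04 ± 0.17). JAK1 changed by 0.35 ± 0.15 and TYK2 by −0.27 ± 0.17 with the combination (adjusted p = 0.193 and 0.386).

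CGAS, the sensor of cytosolic DNA, was 7.60, 7.08 and 7.88 in control and 5.86, 6.36 and 6.31 with the combination. It was 7.42, 7.22 and 6.60 with givinostat and 6.45, 7.46 and 6.87 with sorafenib. CGAS entered the test through the control group alone, detected there on 3 arrays, against 2 givinostat, 2 sorafenib and 0 combination arrays. It is among the pathway genes called with the combination, a count that this filter favours. In the combination CGAS was at least 1.49-fold lower than in control (limma change −1.34 ± 0.30, adjusted p = 0.0260). That call was lost without control A, control C or any 1 combination array (adjusted p 0.0529 to 0.0938). TRIM5, an interferon-inducible restriction factor for retroviruses, was 9.49, 9.61 and 9.77 in control, 9.63, 9.58 and 9.53 with givinostat, 8.73, 8.70 and 8.66 with sorafenib and 8.82, 9.21 and 8.87 with the combination. All 6 arrays with sorafenib lay below all 6 without it, a split whose share over all genes was not counted. TRIM5 fell by 0.92 ± 0.13 with sorafenib, 1.90-fold lower (limma adjusted p = 0.00597), and by 0.65 ± 0.13 with the combination (adjusted p = 0.0173). The combination differed from givinostat by −0.61 ± 0.13 (adjusted p = 0.0459). The sorafenib call held without each array in turn. The combination call was lost without control B, control C, combination A or combination C (adjusted p 0.0515 to 0.0720). The call against givinostat was lost without any 1 array other than control A or combination B (adjusted p 0.0564 to 0.136). With the mean of the kept probes in place of the brightest, the sorafenib call held and the calls with the combination were lost.

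SOCS3, a feedback inhibitor of JAK signalling, was 9.69, 7.14 and 7.86 in control and 6.11, 6.61 and 6.67 with sorafenib, detected there on 1 of 3 arrays (change −1.77 ± 0.55, limma adjusted p = 0.110). SOCS1, another such inhibitor, was 12.06 to 12.70 in control and 11.79 to 12.46 with sorafenib, overlapping in every group (change −0.26 ± 0.27, adjusted p = 0.647).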

How the data were processed

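Total RNA was labelled as biotinylated cRNA per the labels, and the tool named in the submitters' processing notes is BeadStudio, with no version given. The authors deposited raw bead intensities, 1 per probe and array, with no background subtracted, and beside each a fraction whose header, per the file headers, calls it a detection p-value but which rises with intensity, so 1 minus this fraction was used as the detection p. The authors also deposited a processed value table, used on the log2 scale as an alternative. No genome build is given in the sources used here. Of the probes, 28098 have 1 gene symbol, 13 several and 20692 none in the platform annotation, and 28059 were matched by Entrez ID with 0 symbols updated.

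The function neqc (limma 3.58.1, R 4.3.3, offset 16) corrected the background and made array quantiles equal, using the detection values in place of control probes. A probe was kept where a whole group of 3 arrays detected it at p under 0.05 (11801 probes), the brightest probe stood for each gene (8079), and limma's moderated test was fitted to all 12 arrays with 8 residual degrees of freedom. Adjusted p-values are Benjamini-Hochberg. An undetected group's fold is a bound, set against the lowest detected signal of each array, and where only some arrays of a group detected the gene, how many is stated. No depth applies to arrays, and 3 per group limits the precision. The procedure was tested on simulated data.

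The members and lists were chosen with earlier results of these data known. Values in full were given to genes called in a comparison, to the 3 of each role with the lowest p, and to the highest and lowest change per comparison (20 genes), and to the pathway genes called or fixed by name. ISG20, TRIM22, SAMD9L and the remaining tested genes were added so that all are accounted for, after their values were seen.

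For pairing, the deviations of same-letter arrays from their group means were correlated over all genes. The 9 correlations among control, givinostat and sorafenib arrays were 0.177 to 0.408, so the letters were taken to pair these groups, from the data and not from the labels. The 9 with combination arrays were −0.139 to 0.363. Combination array A gave 0.310 to 0.363, array B −0.139 to −0.107 and array C −0.085 to 0.135. The combination group as a whole was therefore not taken as paired. The paired fit of the first 3 groups, with the letter as a block, called 1 of 32 genes for givinostat and 3 for sorafenib. The shares of all genes there were 1.81% and 8.84%.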

Additional observations from a re-analysis of the deposited data

How the results depend on the processing

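Of 5506 recomputed changes of the 32 genes and of the named pathway genes, 5405 kept their call or lack of one, 55 lost a call, 46 gained one and 0 reversed. The number of list genes called, out of 32 unless stated, depended on the processing, and so did the share called of all genes. Without background correction the number was 3 for sorafenib, 5 for the combination, 3 for the combination against givinostat and 1 against sorafenib. The shares of all genes called there were 5.94%, 10.0%, 4.51% and 1.21%. The deposited table gave the same 3, 5, 3 and 1, beside 5.93%, 9.99%, 4.51% and 1.23% of all genes. Normexp on the intensities alone gave 1 for sorafenib (3.96% of all genes). Detection at p under 0.01 on all 12 arrays left 25 of the list's genes to test. It gave 2 for sorafenib, 4 for the combination and 1 for the combination against givinostat. The shares of all genes kept there were 6.58%, 11.1% and 4.43%. For the combination the count was 0 with array median scaling, with no filter on dim probes (0 of 44 genes) and with only the 2 groups compared. The shares of all genes there were 1.19%, 0.939% and 1.78%. The causes were not tested. Array median scaling shifted the median of all genes by −0.29 for the combination, −0.39 against givinostat, −0.32 against sorafenib and −0.42 for the interaction, and the list's medians there were −0.43, −0.50, −0.46 and −0.40. The list's median was −0.10 for the combination without background correction and in the deposited table. With the replicate block on all 12 arrays the counts were 2 for givinostat (IRF7 and ISG20 lower), 2 for sorafenib (IRF1 higher, BST2 lower), 4 for the combination (GBP2 and IRF1 higher, IRF7 and SAMD9 lower), 2 against givinostat (IRF1 higher, BST2 lower) and 1 against sorafenib (IRF7 lower), with 2.05%, 8.74%, 13.2%, 7.3% and 2.17% of all genes called. With the block and no combination arrays they were 1 and 3, and the block changed no other call among the 32 genes. Leaving out each array in turn gave 0 to 1 for givinostat, 0 to 1 for sorafenib, 0 to 2 for the combination, 0 to 1 against givinostat, and 0 to 0 against sorafenib and for the interaction. The sorafenib median ran from −0.09 to 0.09 over all settings, changing sign in 3 of 24. A slide block was not run, since the headers name no slides, and the interaction has no version with only its groups. Genes near background, such as GBP1, MX2 and HERC6, are the least certain in size.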
